A study of Homo sapiens with 4 samples.

Results

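The Janus kinases JAK1, JAK2 and TYK2, the transcription factors STAT2, STAT3, STAT5A, STAT5B and STAT6, and SOCS3, the inhibitor that these factors induce, are the core of the JAK-STAT pathway. They were described in QK-knockdown Hs683 cells that carried either miR-20a or a scrambled microRNA. Genes were chosen by name: a probe set, the group of short probes that reports on a transcript, was taken where its single gene symbol in the platform annotation, brought to the current symbol, was one of the 9. Of the 9 genes, 8 were found, among 17716 genes in all, and each of the 8 had 1 probe set. Among the 20323 probe sets of the deposited values, 338 genes had more than 1. Whether the array carries further probe sets for the 9 genes was not established, so agreement between probe sets could not be examined. The kinases were read by probe sets 1552610_a_at (JAK1), 205842_s_at (JAK2) and 205546_s_at (TYK2), the STAT factors by 208992_s_at (STAT3), 203010_at (STAT5A), 205026_at (STAT5B) and 201332_s_at (STAT6), and SOCS3 by 206359_at. STAT2 had no probe set under that rule and is not analysed here.

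Hs683 is a human glioma cell line. The miR-20a group held 2 arrays of QK-knockdown Hs683 cells transduced with miR-20a, and the miR-NT group held 2 arrays of QK-knockdown Hs683 cells transduced with a non-targeting microRNA of scrambled sequence. QK, now named QKI, encodes an RNA-binding protein of glial cells and was knocked down in both groups, so that no array shows these genes at a normal QKI level. The sources used here do not say how the knockdown was made, or whether the cells of a group were 1 clone or a pool. The labels do not say whether replicates were separate cultures, so p-values cover the variation among these 4 arrays alone, and that variation may be technical. Values are on the log2 scale with 1 value for each probe set on each array, so a difference of 1 is a 2-fold difference.

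Cytokines of the interleukin-6, interferon and growth hormone families bind receptors that have no kinase activity of their own. A Janus kinase bound to the receptor's tail is activated instead and phosphorylates STAT proteins, which pair, enter the nucleus and switch on target genes. Among these targets is SOCS3, which binds the receptor and kinase and closes the loop. In glioma, STAT3 is known for driving invasive, mesenchymal programs, and in glial development it is known for promoting astrocyte genes. MicroRNAs of the miR-17 family lower mRNAs that pair with their seed, and JAK1 and STAT3 have both been named as targets of this family.

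The mature sequences of miR-20a and of the family members that share its seed are shown because that shared stretch decides which transcripts the added microRNA can pair with. They are given 5′ to 3′ from RefSeq (GRCh38.p14), with the seed, bases 2 to 8, in capitals. The mature miR-20a-5p lies at chr13:91351072-91351094 on the plus strand, and miR-17-5p at chr13:91350618-91350640 on the same strand.
hsa-miR-20a-5p: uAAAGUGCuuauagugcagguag
hsa-miR-17-5p: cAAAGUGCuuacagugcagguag
hsa-miR-20b-5p: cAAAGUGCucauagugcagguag
hsa-miR-93-5p: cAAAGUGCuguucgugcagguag
hsa-miR-106a-5p: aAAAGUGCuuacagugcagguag
hsa-miR-106b-5p: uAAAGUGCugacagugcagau
Outside this family, hsa-miR-519d-3p and hsa-miR-526b-3p carried the same 7-base seed, which makes 8 mature names in the RefSeq table. A transcript that pairs with the whole seed holds GCACUUU. No 3′ untranslated regions were used here, so which of the 8 genes carry that site was not established.

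No gene of the group passed the test over all genes. JAK1, JAK2, STAT3 and SOCS3 measured between 1.23-fold and 1.505-fold lower with miR-20a and had unadjusted p under 0.05. TYK2 was 1.07-fold lower, and STAT5A, STAT5B and STAT6 lay between 1.03-fold and 1.13-fold higher, none of these 4 at an unadjusted p under 0.05. In limma with Benjamini-Hochberg adjustment over 12401 genes, 0 of the 8 passed an adjusted p of 0.05 in either direction, where 0.00806% of all genes tested were lower and 0% higher at that threshold. At an unadjusted p under 0.05, 4 of the 8 were lower, where 13.2% of all genes were, and 0 were higher, where 5.82% of all genes were. The median log2 fold change was -0.20 over the 8 genes and -0.02 over all genes tested. All 8 passed the filter on dim genes, with the mean of each group above the lowest mean of a tested gene, 5.46. By their mean over both groups, JAK1, STAT5B and STAT6 lay below the median of all probe sets, and JAK2, TYK2, STAT3, STAT5A and SOCS3 above it. SOCS3 lay close to it, at 6.23 with miR-20a and 6.67 with miR-NT, where the array medians were 6.43 to 6.45. Passing the filter does not establish expression, since the immune marker CD3E also passed it, at 7.65 with miR-20a and 7.37 with miR-NT.

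JAK1, which serves the gp130, interferon and common gamma chain receptors, measured 6.12 and 6.06 in miR-20a replicates 1 and 2, against 6.45 and 6.54 in miR-NT replicates 1 and 2. The groups did not overlap, and the arrays of a group lay close together. Its log2 fold change was -0.40 (SE 0.10, 95% interval -0.63 to -0.18), or 1.32-fold lower, and it did not pass over all genes (limma adjusted p = 0.127). The gap between the lower miR-NT and the higher miR-20a array, 0.33, was wider than the spread of either pair, 0.061 with miR-20a and 0.094 with miR-NT.

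JAK2, the kinase of the erythropoietin, growth hormone and interferon-gamma receptors, measured 6.48 and 6.50 with miR-20a, against 6.81 and 6.78 with miR-NT. This was the tightest pattern of the 8 genes, with arrays of a group 0.017 apart with miR-20a and 0.029 apart with miR-NT, and a gap between groups of 0.28. That made a log2 fold change of -0.30 (SE 0.09, 95% interval -0.52 to -0.08), or 1.23-fold lower (limma adjusted p = 0.182).

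TYK2, the partner kinase of the type I interferon and interleukin-12 receptors, measured 8.91 and 8.81 with miR-20a, against 8.93 and 8.99 with miR-NT. The groups did not overlap, but the gap between them was 0.015, narrower than the spread of either pair. TYK2 had a log2 fold change of -0.10 (SE 0.10, limma adjusted p = 0.579), and its 95% interval of -0.33 to 0.13 held values like that of JAK2. Subtracting the TYK2 value from the JAK1 value on each array gave a difference between the log2 fold changes of -0.31. An exact two-sided permutation test of that difference gave p = 0.333, the smallest p that 2 arrays against 2 allow.

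**Figure D1:**
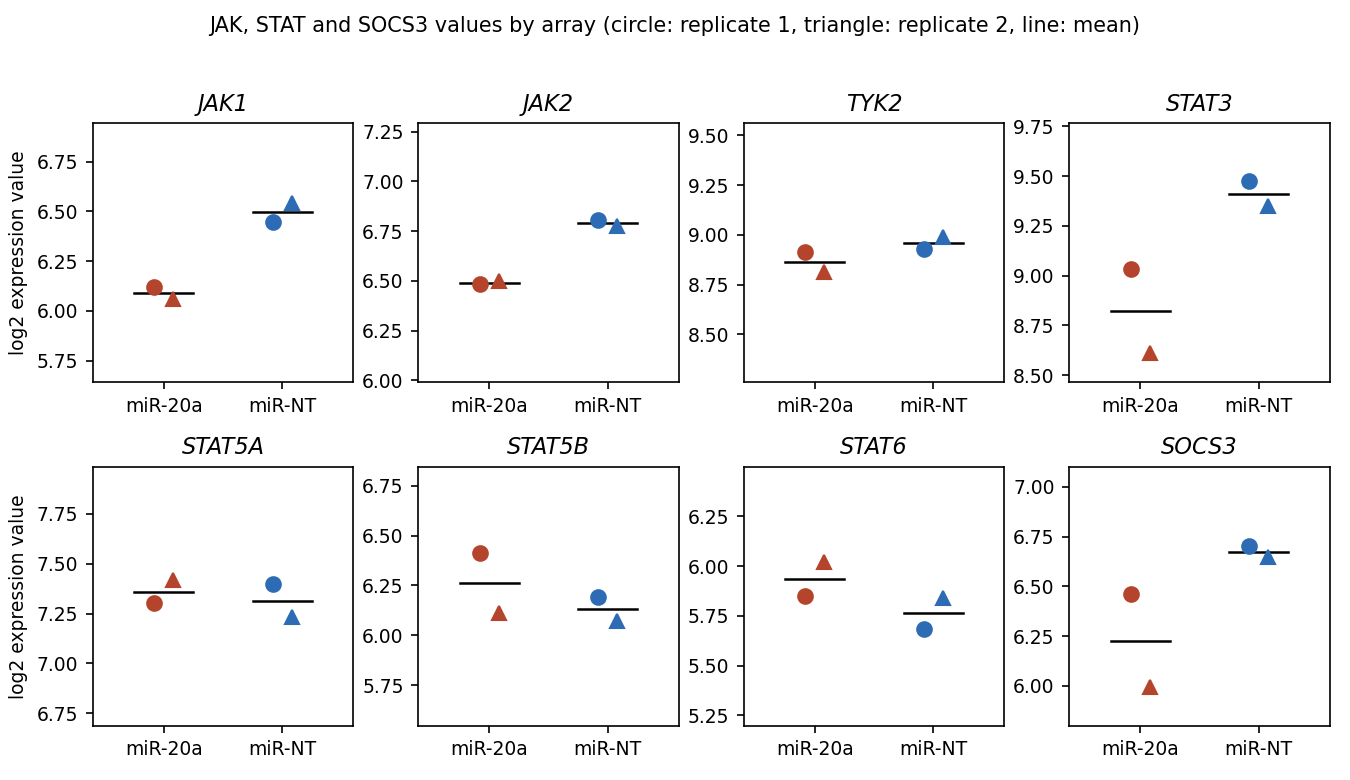
Log2 expression value (vertical axis, every panel spanning the same range of log2 units) of each of the 8 genes on the 2 miR-20a arrays and the 2 miR-NT arrays; circles are replicate 1, triangles replicate 2 and lines the group means. JAK1 and JAK2 form tight, separated pairs, STAT3 and SOCS3 are lowest on miR-20a replicate 2, and STAT5A and STAT5B overlap between groups.

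STAT3, the factor that carries signals of interleukin-6 and its relatives, measured 9.03 and 8.61 with miR-20a, against 9.47 and 9.35 with miR-NT. Both miR-20a arrays were lower than both miR-NT arrays, and miR-20a replicate 2 was the lowest by a wide margin. The group means were 8.82 ± 0.30 with miR-20a and 9.41 ± 0.09 with miR-NT (SD, n = 2 each). The log2 fold change of -0.59 (SE 0.15, 95% interval -0.93 to -0.25), or 1.505-fold lower, had the largest size among the 8 genes and did not pass over all genes (limma adjusted p = 0.133). Leaving out miR-20a replicate 2 gave -0.38, and leaving out miR-20a replicate 1 gave -0.80.

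SOCS3 showed a like pattern across the arrays. It measured 6.46 and 5.99 with miR-20a, against 6.70 and 6.65 with miR-NT, so that the groups did not overlap and the miR-20a arrays lay 0.47 apart. The log2 fold change was -0.45 (SE 0.15, 95% interval -0.81 to -0.09), or 1.36-fold lower (limma adjusted p = 0.205). Leaving out miR-20a replicate 2 gave -0.21 and leaving out miR-20a replicate 1 gave -0.68, so that miR-20a replicate 2 carried much of its size. In these bulk samples, fewer cells that express a gene and less RNA per cell cannot be told apart.

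The array that was lowest in STAT3 and SOCS3 was also lowest in the 5' control probe sets of ACTB and GAPDH. Whether RNA or labelling quality, or the expression of ACTB and GAPDH themselves, set these low control values was not tested. The ACTB 5' control probe set, which reads the far end of an abundant transcript, measured 11.59 and 10.43 with miR-20a, against 12.78 and 12.66 with miR-NT. For GAPDH, the corresponding 5' control was at 13.17 and 12.30 with miR-20a, against 13.89 and 13.81 with miR-NT. QKI ran the same way, at 7.52 and 7.08 with miR-20a and 8.14 and 7.92 with miR-NT.

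Adding the ACTB 5' signal to the fit as a covariate moved STAT3 and SOCS3 more than JAK1 and JAK2. Fold changes were then -0.33 for JAK1 and -0.32 for JAK2, near their values without it, and 0.047 for STAT3 and 0.24 for SOCS3 (all log2), each with an SE of 0.25 in a fit that leaves 1 residual degree of freedom. In that fit limma's adjusted p over all genes was 0.923 for JAK1, 0.928 for JAK2, 0.997 for STAT3 and 0.964 for SOCS3. With the GAPDH 5' signal instead, the log2 fold changes were -0.34 for JAK1, -0.32 for JAK2, -0.038 for STAT3 and 0.15 for SOCS3. Between the 2 miR-20a arrays the ACTB 5' control differed by 1.16, JAK1 by 0.061, JAK2 by 0.017, STAT3 by 0.42 and SOCS3 by 0.47. Between the miR-NT arrays the ACTB 5' control differed by 0.11, so the slope of the ACTB 5' covariate rests mostly on the miR-20a pair. That fit therefore largely restates how the 2 miR-20a arrays differ and is not separate evidence on these genes. Between the groups the ACTB 5' control differed by -1.71, and its part in the differences of these genes was not tested.

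**Figure D2:**
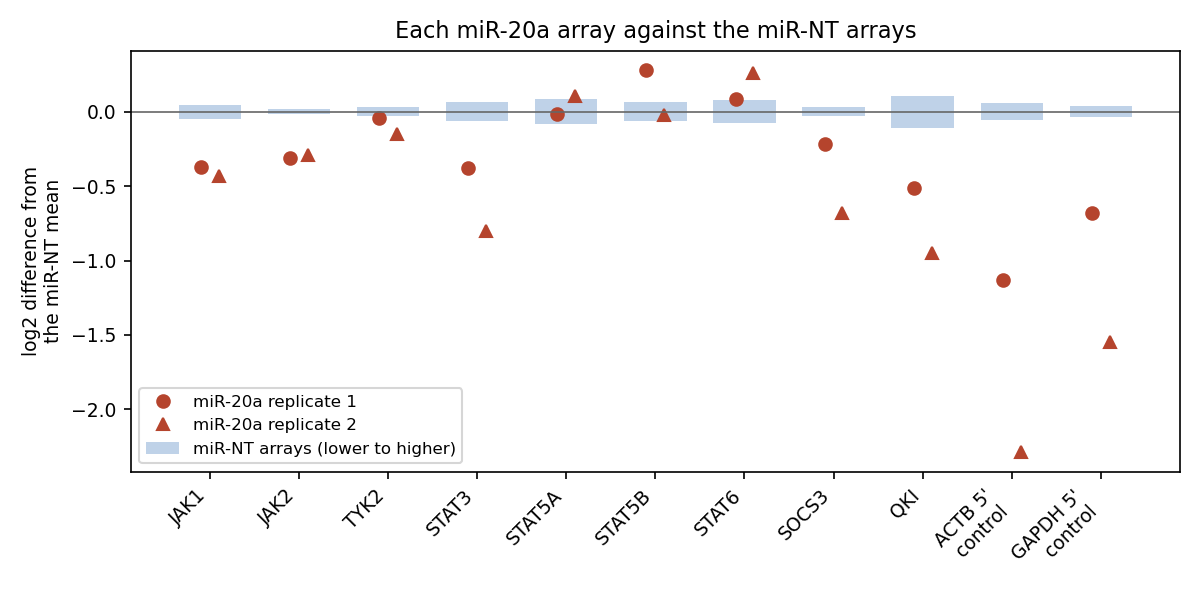
Difference of each miR-20a array from the miR-NT mean (vertical axis, log2 units) for the 8 genes, QKI and the 5' controls of ACTB and GAPDH; circles are miR-20a replicate 1, triangles miR-20a replicate 2, and the blue boxes span the lower to the higher miR-NT array. JAK1 and JAK2 sit at about the same depth on both miR-20a arrays, from -0.29 to -0.44, whereas STAT3 (-0.38 and -0.80) and SOCS3 (-0.21 and -0.68) are lower on replicate 2, as are QKI and both controls.

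The other STAT factors measured had log2 fold changes above 0. STAT5A measured 7.30 and 7.42 with miR-20a, against 7.40 and 7.23 with miR-NT, and the groups overlapped. Its log2 fold change was 0.04 (SE 0.11, 95% interval -0.21 to 0.30, limma adjusted p = 0.811). STAT5A was named for prolactin signalling in the mammary gland and is also used by interleukin-2 and growth hormone.

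STAT5B, the close paralog of STAT5A that mediates growth hormone signals, measured 6.41 and 6.11 with miR-20a, against 6.19 and 6.07 with miR-NT. The value of miR-20a replicate 1 stood above the other 3, which lay close together. STAT5B had a log2 fold change of 0.13 (SE 0.13, 95% interval -0.16 to 0.42, limma adjusted p = 0.559). Which probes of these paralogs could also bind the other's transcript was not established. After the ACTB 5' covariate was added STAT5B was at 0.59 (SE 0.25), also short of the threshold (limma adjusted p = 0.548).

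STAT6, the factor of interleukin-4 and interleukin-13 signals, was the 1 gene of the 8 whose miR-20a arrays both lay above both miR-NT arrays. It measured 5.85 and 6.02 with miR-20a, against 5.68 and 5.84 with miR-NT. The higher miR-NT and the lower miR-20a array were nearly equal, and the log2 fold change of 0.17 (SE 0.11, 95% interval -0.09 to 0.43) did not pass (limma adjusted p = 0.403). In all, 5 of the 8 genes did not overlap between groups and were lower with miR-20a, where 31.1% of all genes were, and 1 was higher, where 25.1% of all genes were.

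STAT5B, STAT5A and STAT3 follow each other on chromosome 17 with 0 other protein-coding genes between them in the RefSeq gene table. Of these neighbours STAT3 measured lower with miR-20a and the other two did not. Within each array the STAT3 value minus the STAT5A value was 1.73 and 1.19 with miR-20a, against 2.08 and 2.12 with miR-NT, so that the fold changes differed by -0.63. For STAT3 and STAT5B the difference was -0.72, with both miR-20a arrays again below both miR-NT arrays. Each of these exact two-sided permutation tests gave p = 0.333, the smallest that 2 arrays against 2 allow, and the 3 pairs of genes were chosen after their values were seen. In the fit with the ACTB 5' covariate STAT3 was at 0.047 and STAT5A at -0.10.

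**Figure D3:**
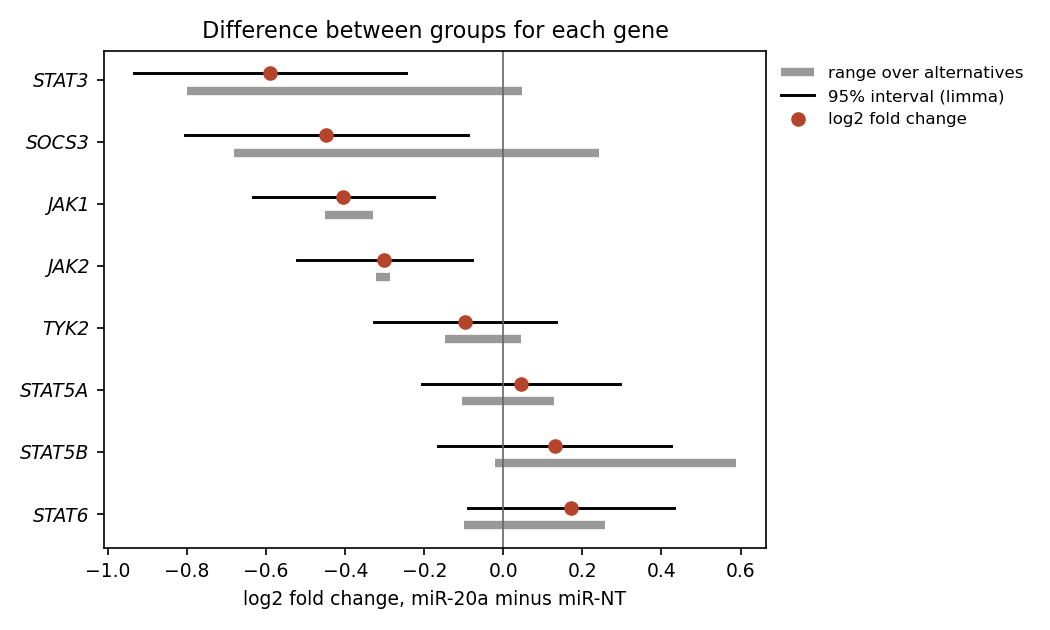
Log2 fold change of each gene, miR-20a minus miR-NT (horizontal axis), with its 95% interval from limma (black line) and the range over the alternative settings (grey bar). The intervals of STAT3, SOCS3, JAK1 and JAK2 lie below 0; the grey bars of JAK1 and JAK2 do too, from -0.45 to -0.33 and from -0.32 to -0.29, whereas those of STAT3 and SOCS3 reach 0.047 and 0.24.

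Upstream of the kinases, ligands and receptors of the pathway were read from lists of known members. Of 7 ligands of the gp130 family 5 were tested, 2 below 0 and 3 above, with a median log2 fold change of 0.02, and 0 passed in limma in either direction, also at an unadjusted p under 0.05. Those with the smallest p were IL6, the founding ligand of the family (log2 fold change -0.14), IL11 (-0.09) and OSM (0.05). Their adjusted p in limma were 0.504, 0.597 and 0.784. IL6 measured 8.54 and 8.46 with miR-20a, against 8.75 and 8.52 with miR-NT.

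Of 23 listed receptor chains that signal through Janus kinases 19 were tested, 11 below 0 and 8 above, with a median log2 fold change of -0.09, where that of all genes was -0.02. Of all genes 53.8% were below 0. The median of the chains was 0.0055 after quantile normalization and 0.053 with the ACTB 5' covariate. None passed in limma over all genes, and at an unadjusted p under 0.05, 4 were lower, where 13.2% of all genes were, and 0 higher, where 5.82% of all genes were. IL13RA1, a chain of the interleukin-13 receptor, measured 6.98 and 6.56 with miR-20a, against 7.24 and 7.37 with miR-NT (log2 fold change -0.53, limma adjusted p = 0.152). IFNAR1, a chain of the type I interferon receptor that binds TYK2, measured 5.83 and 5.91 with miR-20a, against 6.26 and 6.16 with miR-NT (log2 fold change -0.34, limma adjusted p = 0.164). CSF2RA, the alpha chain of the GM-CSF receptor, was at -0.34 (limma adjusted p = 0.203), and the fourth, the interferon-gamma receptor chain IFNGR1, at -0.47 (0.213).

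JAK3, the kinase of the common gamma chain receptors, was left out as dim. STAT4, the factor of interleukin-12 signals in lymphocytes, measured 6.58 and 7.04 with miR-20a, against 6.54 and 6.28 with miR-NT. Its log2 fold change of 0.40 (SE 0.17) did not pass (limma adjusted p = 0.259). Leaving out miR-20a replicate 2 gave 0.16, and the ACTB 5' covariate gave -0.25.

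Of 16 listed inhibitors other than SOCS3, 10 were tested, 5 below 0 and 5 above, where 53.8% of all genes were below 0. Their median log2 fold change was 0.02, from -0.13 to 0.18 over the alternatives. None passed in limma; at an unadjusted p under 0.05, 3 were lower, where 13.2% of all genes were, and 0 higher, where 5.82% of all genes were. These 3 were PIAS2, a SUMO ligase that binds STATs (log2 fold change -0.46, limma adjusted p = 0.178), SOCS1, the nearest relative of SOCS3 in function (-0.33, 0.197), and the phosphatase PTPN11 (-0.44, 0.224). SOCS1 measured 5.37 and 5.43 with miR-20a, against 5.84 and 5.62 with miR-NT, near the lowest mean of a tested gene. PTPN11 measured 7.30 and 7.31 with miR-20a, against 8.01 and 7.48 with miR-NT, so that miR-NT replicate 1 stood apart from the other arrays. SOCS6 and SOCS7, relatives of SOCS3 that did not reach that p, were at 0.25 and 0.21.

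Of 19 listed genes known to be induced by STAT3, 17 were tested, 8 below 0 and 9 above, where 53.8% of all genes were below 0. Their median log2 fold change was 0.02, from -0.10 to 0.11 over the alternatives. None passed in limma over all genes, and at an unadjusted p under 0.05, 3 were lower, where 13.2% of all genes were, and 2 higher, where 5.82% of all genes were. CHI3L1, a secreted glycoprotein of mesenchymal glioma, measured 6.77 and 6.77 with miR-20a, against 7.28 and 7.33 with miR-NT (log2 fold change -0.54, limma adjusted p = 0.0949). BCL2L1, which encodes the survival protein BCL-XL, measured 5.61 and 5.44 with miR-20a, against 6.23 and 5.92 with miR-NT (-0.55, limma adjusted p = 0.122). VEGFA, the angiogenic factor, was at -0.38 (limma adjusted p = 0.158). In the other direction, BCL6 was at 0.32 (limma adjusted p = 0.188) and MCL1, a survival protein of the BCL2 family, at 0.28 (0.242).

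**Figure D4:**
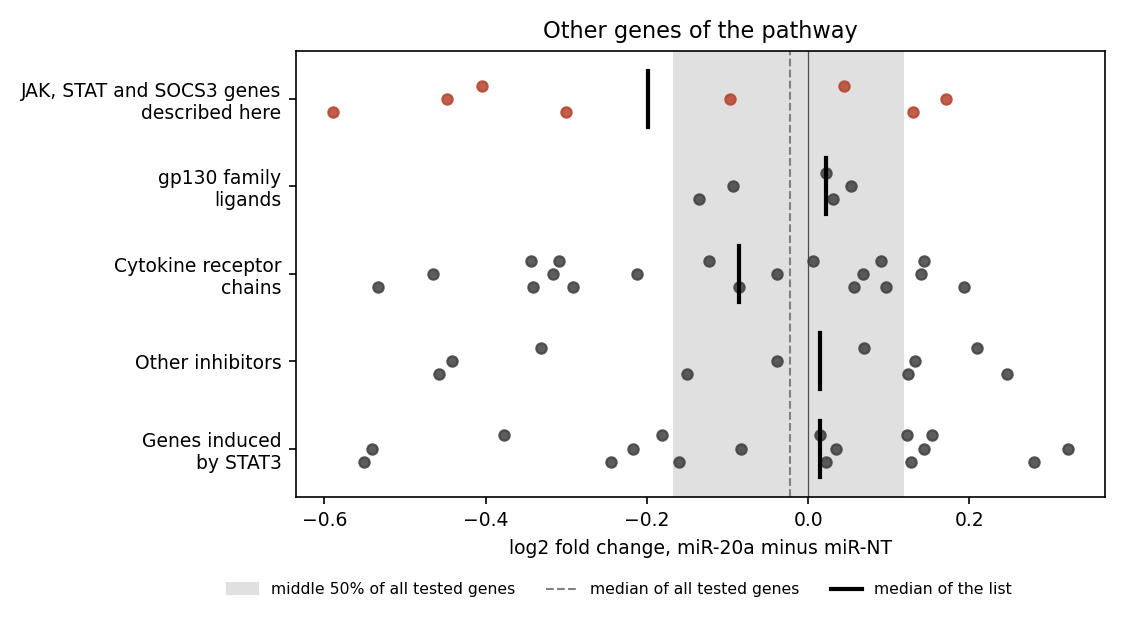
Log2 fold change, miR-20a minus miR-NT (horizontal axis), of each tested gene (points) in the group described here and in the lists of ligands, receptor chains, other inhibitors and STAT3-induced genes; black bars are list medians, the grey band holds the middle 50% of all tested genes (-0.17 to 0.12) and the dashed line is their median. The medians of the other lists lie between -0.09 and 0.02, and that of the 8 genes at -0.20.

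Over the 4 arrays, the genes whose centred values lay nearest to those of JAK1, the gene of the 8 with the smallest p, were VPS13A, B4GALT4 and ATN1. Their root mean square distances from JAK1 were 0.0158, 0.0168 and 0.0204 log2 units, and their log2 fold changes were -0.41, -0.38 and -0.41. They were picked from 12401 genes for this nearness, so the like fold changes follow from the choice. A link to JAK1 was not tested.

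The array medians over 20323 probe sets were 6.43 and 6.45 with miR-20a and 6.45 on both miR-NT arrays. Markers of the labelled cell type passed the filter on dim genes in part. Of 11 glial or neural markers found, 6 passed, among them VIM and SOX10, whereas GFAP, S100B, OLIG1, OLIG2 and NES did not. The summed log2 value of these 11 markers was 68.6 to 69.4 with miR-20a and 67.3 to 67.7 with miR-NT. Immune markers summed to 22.5 to 22.9 with miR-20a and 22.4 to 22.6 with miR-NT over 4 genes, epithelial markers to 33.9 to 34.2 with miR-20a and 34.2 in both miR-NT arrays over 5 genes, and endothelial markers to 19.8 to 20.3 with miR-20a and 19.87 to 19.96 with miR-NT over 4. Of these, the immune markers CD3E and ITGAM, the epithelial keratins KRT8 and KRT18 and the endothelial marker PECAM1 passed the filter on dim genes, and PTPRC, EPCAM, CDH1, VWF and CDH5 did not. KRT18 averaged 12.64 with miR-20a and 12.66 with miR-NT, CD3E 7.65 with miR-20a and 7.37 with miR-NT, and PECAM1 6.04 with miR-20a and 5.74 with miR-NT. The part of these marker differences in the results was not tested.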

How the data were processed

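Total RNA (6 ug per array, per the labels' protocols) was measured on 4 Affymetrix arrays. The deposited log2 values, 1 per probe set, were made by the authors; per the submitters' processing notes the R package affy was used, and the sources used here do not give the summarisation or normalization. That the values are log2 was judged from their range. The precision rests on the number of arrays, 2 per group.

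Samples were grouped by title. Of 20323 probe sets, 3 were controls, 18060 had 1 gene symbol, 886 had several and 1374 had none; 18034 symbols were brought up to date through gene identifiers in the RefSeq gene table. The probe set with the highest mean was used per gene, which gave 17716 genes, and the 5315 dimmest (30%) were left out. With limma 3.58.1 (R 4.3.3), a moderated linear model with no covariate compared miR-20a with miR-NT in a two-sided test of 12401 genes, called at a Benjamini-Hochberg adjusted p of 0.05. SE and 95% intervals are those of the moderated fit, with 2 residual and 5.53 prior degrees of freedom. The fit was tested on simulated data.

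The 9 genes, the pathway lists and the alternatives were chosen with earlier results of these data known. The text names all 9 genes, the 3 genes of each list with the smallest p, and the 3 genes nearest to the gene of the 8 with the smallest p; IFNGR1, BCL6, MCL1, SOCS6 and SOCS7 were named after their values were seen. The labels state no pairing, so whether same-numbered arrays of the 2 groups share more than a number is not known.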

Additional observations from a re-analysis of the deposited data

How the results depend on the processing

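Of 108 values for the 8 genes under the alternatives, 93 kept their direction and their side of the threshold, 3 newly passed it and 12 changed sign. JAK1 and JAK2 kept their direction in every alternative that tested them (13 and 14). Part of this, and of the 93 values, was fixed in advance. As each of the 8 had 1 probe set, other ways of combining probe sets could not change a fold change. Nor could another filter, another prior or the replicate block. Only the normalizations and covariates could change a direction, or, for STAT5A and STAT5B, whose groups overlapped, an array left out. The ACTB 5' covariate turned the signs of TYK2 (0.044), STAT3 (0.047), STAT5A (-0.10), STAT6 (-0.10) and SOCS3 (0.24), and the GAPDH 5' covariate, an alternative chosen after seeing the data, those of TYK2 (0.026), STAT5A (-0.085), STAT6 (-0.063) and SOCS3 (0.15). With 1 array left out STAT5A ranged from -0.039 (no miR-NT replicate 2) to 0.13 and was -0.014 without miR-20a replicate 2, and STAT5B ranged from -0.021 (no miR-20a replicate 1) to 0.28. The cause was not tested.

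The 3 passes all came without miR-20a replicate 1, for JAK1 (limma adjusted p = 0.0224), STAT3 (5.15e-05) and SOCS3 (0.000392). Such a fit takes the spread of miR-20a from miR-NT, and 1567 genes were lower and 302 higher in it. With 1 array left out the members past the threshold numbered 0 to 3 lower, and all genes past it 0 to 1567 lower and 0 to 302 higher. The median of the 8 genes ranged from -0.22 to -0.13 with 1 array left out, and was -0.028 with the ACTB 5' covariate and -0.051 with the GAPDH 5' covariate.

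Of all genes, where 1 was lower and 0 higher, 6 were lower after quantile normalization, 45 lower and 2 higher after median centring, 4 lower with the dimmest 50% left out, 23 lower and 1 higher with an intensity trend and robust prior, 5 lower and 1 higher with the ACTB 5' covariate and 20 lower and 4 higher with the GAPDH 5' covariate. None of the 8 genes was among them, but with the dimmest 50% left out only 4 of the 8 (JAK2, TYK2, STAT3 and STAT5A) were tested. Over the alternatives the medians ranged from -0.15 to 0.053 for the receptor chains, -0.13 to 0.18 for the other inhibitors, -0.10 to 0.11 for the STAT3-induced genes and -0.056 to 0.033 for the gp130 ligands. After quantile normalization 1450 genes were lower and 1584 higher at an unadjusted p under 0.05, against 1633 and 722 without it, and 4 of the 8 genes were lower in both. With the replicate block 0 genes passed in limma, and no gene of the 8 changed its call; the adjusted p was 0.139 for JAK1 and 0.139 for STAT3. Deviations of same-numbered arrays from their group means correlated at 0.267 across genes.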
